A study of Mus musculus with 15 samples.

Results

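The forkhead clusters examined here are a pair of genomic windows that hold 6 genes for forkhead transcription factors. The window on chromosome 13 (31.60 to 31.95 Mb, mm9) holds Foxq1, Foxf2 and Foxc1, and the window on chromosome 8 (123.55 to 123.70 Mb, mm9) holds Foxf1, Foxc2 and Foxl1. Members were taken by position, as every deposited peak that touched a window by at least 1 bp. This gave 49 peaks of 30692 in all, of which 27 lay on chromosome 13 and 22 on chromosome 8. The choice was made with earlier results of these data known. The study mapped subunits of Polycomb repressive complex 1 (PRC1) by ChIP-seq in cells of the mouse line E14Tg2A. Mel18, Cbx2, Ring1b and RYBP were mapped in early cardiac mesoderm precursors (MES), which were made from that line by a cardiac differentiation protocol with BMP4. Mel18 was also mapped in the undifferentiated embryonic stem cells (ESCs), grown in 2i medium with LIF. Each of these 5 groups had 1 sample. The labels name no genetic change in these samples. The identity of the cells could not be checked against marker genes, since peak lists hold no expression. The IgG and RNA-seq libraries were not analysed here.

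Forkhead factors bind DNA through a winged-helix domain. Foxc1 and Foxc2 act in paraxial mesoderm, in the vasculature and in the developing heart. Foxf1 acts in lateral plate mesoderm and in the mesenchyme it forms, and Foxf2 and Foxl1 in mesenchyme such as that of the gut. Foxq1 is best known for its part in hair shaft formation and in the stomach lining. Foxf1 and Foxf2 are paralogues of each other, as are Foxc1 and Foxc2, so the clusters are related. PRC1 is a chromatin complex that holds developmental genes repressed, often at promoters rich in CG dinucleotides. Ring1b is its catalytic subunit, which places ubiquitin on a histone. Mel18 (Pcgf2) is one of its PCGF subunits. Canonical PRC1 contains a chromodomain protein such as Cbx2, and variant PRC1 contains RYBP or its relative YAF2.

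Of the 6 genes, Foxf2 and Foxc1 matched an entry in a table of RefSeq promoters (GRCm38.p6). These promoters are shown for their CG content, as PRC1 is known to occupy CG-rich promoters. Each runs from 250 bases before the gene's start to 50 after it, on the plus strand, with every CG in capitals. The Foxf2 promoter lies at chr13:31625566-31625865 and the Foxc1 promoter at chr13:31806396-31806695 of GRCm38.p6. These positions are of another build than the peaks and cannot be set against them.
Foxf2: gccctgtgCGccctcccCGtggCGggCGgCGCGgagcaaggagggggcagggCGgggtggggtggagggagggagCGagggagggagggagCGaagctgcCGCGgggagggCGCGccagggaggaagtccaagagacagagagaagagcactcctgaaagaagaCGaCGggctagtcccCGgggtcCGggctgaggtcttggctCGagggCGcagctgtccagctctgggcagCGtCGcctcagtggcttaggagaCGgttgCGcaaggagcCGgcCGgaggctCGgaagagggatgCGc
Foxc1: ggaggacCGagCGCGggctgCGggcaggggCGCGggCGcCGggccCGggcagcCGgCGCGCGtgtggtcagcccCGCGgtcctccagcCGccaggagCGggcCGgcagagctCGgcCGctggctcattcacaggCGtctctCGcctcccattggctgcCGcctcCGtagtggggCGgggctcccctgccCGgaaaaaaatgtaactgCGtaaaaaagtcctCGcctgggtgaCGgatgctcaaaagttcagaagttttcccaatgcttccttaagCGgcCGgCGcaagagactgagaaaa
The Foxf2 promoter held 27 CG dinucleotides and the Foxc1 promoter 32, whereas the median over 32851 promoters of the table was 7. CG reads the same on both strands, and at least 1 was present in 94.6% of all promoters. As many CG as in Foxf2 were found in 15.5% of all promoters, and as many as in Foxc1 in 9.52%. GC content was 71.3% for Foxf2 and 67.3% for Foxc1, against a median of 52.7%. A list of 44 forkhead family genes matched 28 genes with 33 promoters, whose median was 22 CG. The forkhead promoters that matched therefore had a higher median than all promoters, and the unmatched genes had no value.

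In both clusters, PRC1 occupied a few broad stretches, and each of these was bound by Mel18 in both cell states and by all of the other subunits in MES. Overlapping peaks of the 5 lists joined into 7 regions, of which 5 held peaks of every list. Over the genome, 15.7% of the 12154 joined regions held every list. That share was not matched for region length, and how far length accounts for the difference was not tested. On chromosome 13 these stretches, named 13a, 13b and 13c by position, lay at chr13:31648027-31653218, chr13:31705377-31724956 and chr13:31891752-31906757. On chromosome 8 stretches 8a and 8b lay at chr8:123594544-123617677 and chr8:123637012-123655312 (mm9 throughout). The 5 stretches were 5192, 19580, 15006, 23134 and 18301 bp long in that order. Stretch 13a was therefore the short one, and the other 4 were each 15 kb or longer.

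**Figure D1:**
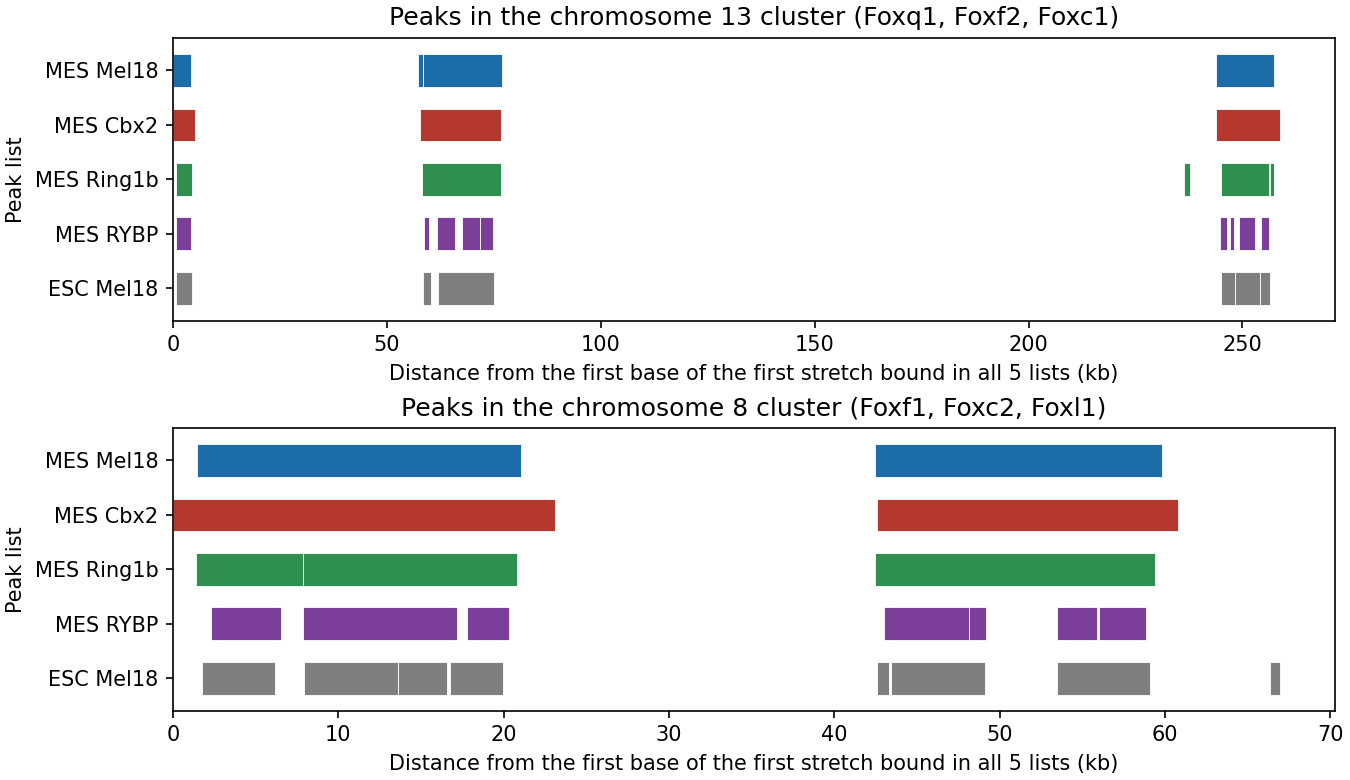
Peaks of the 5 lists (rows) in the chromosome 13 cluster (upper panel) and the chromosome 8 cluster (lower panel), placed by distance in kb from the first base of the first stretch bound in all 5 lists. Each bar is 1 peak, drawn to scale. Peaks of all lists stack in 3 stretches on chromosome 13 and 2 on chromosome 8, with 1 Ring1b peak and 1 ESC Mel18 peak standing alone.

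Among 1911 regions with all 5 lists, whose median length was 3871 bp, 8a ranked 43rd by length, 13b 63rd, 8b 77th, 13c 121st and 13a 595th. Between the stretches no list had a peak for most of the distance. The gap was 52.2 kb between 13a and 13b, 166.8 kb between 13b and 13c, and 19.3 kb between 8a and 8b. The chromosome 13 cluster stood far from other PRC1 peaks. The nearest peak of any list outside its window was a Ring1b peak 787.3 kb to the left of 13a, and on the right a RYBP peak lay 986.6 kb from 13c. On chromosome 8 the nearest outside peaks were low-scoring ESC Mel18 peaks, 68.9 kb to the left of 8a and 146.7 kb to the right of 8b.

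In the GRCm38.p6 annotation, Foxq1, Foxf2 and Foxc1 follow each other in that order on chromosome 13. On chromosome 8 the order is Foxf1, Mthfsd, Foxc2 and Foxl1. No annotation of the mm9 build was used, so the stretches are not assigned to genes, and whether a stretch lies on a promoter, exon or intron is not given.

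Mel18 was present at the same stretches before and after commitment to mesoderm, and its peaks covered more sequence in MES. MES Mel18 had 4 peaks on chromosome 13 and 2 on chromosome 8, against 6 and 8 ESC Mel18 peaks. Of the MES Mel18 peaks, 5 of 6 overlapped an ESC Mel18 peak (83.3%, exact Clopper-Pearson 95% interval 35.9 to 99.6), against 66.3% over the whole MES list. Of the ESC Mel18 peaks, 13 of 14 overlapped a MES Mel18 peak (92.9%, interval 66.1 to 99.8), against 52.6% over the whole ESC list. When peak centres had to lie within 1 kb, 28.6% of the ESC Mel18 peaks were shared. Peaks of 1 stretch are parts of 1 site, so these counts hold fewer independent sites than peaks, and the intervals cover counting only. The whole-list shares given here and below were not matched for peak width, and most peaks of the clusters were wide for their lists. How far width accounts for the overlaps was not tested.

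The Mel18 peaks outside the overlap were both narrow and low in score. The authors' score is used here only to rank or count peaks within a list. The unshared MES peak (chr13:31705377-31706455, 1079 bp) formed the left edge of 13b, 31 bp from the next MES Mel18 peak, and ranked 2869th of 4165 by score. The unshared ESC peak (chr8:123660874-123661480, 607 bp) stood 5561 bp to the right of 8b and ranked 6076th of 6593. No MES peak of any subunit overlapped it.

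MES Mel18 covered more sequence than ESC Mel18 at every stretch. At 13a, MES Mel18 peaks covered 4277 bp and ESC Mel18 peaks 3679 bp, a ratio of 1.16. At 13b they covered 19549 bp in MES and 14831 bp in ESCs (ratio 1.32), and at 13c 13628 bp in MES and 11343 bp in ESCs (ratio 1.20). Ratios on chromosome 8 were of the same order. At 8a MES Mel18 covered 19555 bp and ESC Mel18 16256 bp (ratio 1.20), and at 8b 17354 bp in MES and 12007 bp in ESCs (ratio 1.45). The relation held at 5 of 5 stretches, against 74.9% of the 2540 regions with both Mel18 lists. Broad regions showed it nearly always, at 98.7% of the 226 regions of 10 kb or more with all 5 lists, so the count at the forkhead stretches was near that background. Their ratios lay between 1.16 and 1.45, beside a median of 1.38 in those broad regions and 1.27 in all regions with 5 lists. With 1 sample per list and unknown depth, no test between states was possible, and peak width also depends on depth and calling.

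The added MES sequence lay both at the outer edges and inside the stretches. MES Mel18 began before ESC Mel18 at 5 of 5 stretches, by 125 to 1205 bp. It ended after ESC Mel18 at 4 of 5, by up to 1957 bp at 13b, and ended 161 bp before it at 13a. Edge positions of this and the other lists were not compared with those in other regions. Inside the stretches, 3 of 5 had fewer MES Mel18 than ESC Mel18 peaks, against 24.2% of all regions with 5 lists and 66.4% of those of 10 kb or more, so the count was near that of broad regions. Stretch 13a held 1 Mel18 peak in each state and 13b held 2 in each. Stretch 13c held 1 MES and 3 ESC Mel18 peaks, 8a held 1 and 4, and 8b held 1 and 3.

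ESC Mel18 peaks left 8 inner gaps in 4 of the stretches, 8131 bp in all, and MES Mel18 peaks covered 100% of that length. The widest lay in 8b (chr8:123643677-123648000, 4324 bp). MES Mel18, Cbx2 and Ring1b each had 1 peak that ran across it, whereas RYBP peaks covered 1.06% of it. RYBP had a gap of its own at nearly the same place (chr8:123643723-123648025, 4303 bp), of which ESC Mel18 peaks covered 0.581%. Similar pairs of gaps were present in 13b (ESC Mel18 chr13:31708266-31709923, RYBP chr13:31707917-31709765) and in 8a (ESC Mel18 chr8:123600732-123602468, RYBP chr8:123601066-123602413). The other 5 ESC gaps were 17 to 185 bp wide. The 3 widest gaps of ESC Mel18 thus each overlapped a RYBP gap. The lists come from different antibodies and cell states, and how often their gaps overlap in other regions was not counted. The other 8 of 11 RYBP gaps were 5 to 1662 bp wide, and ESC Mel18 peaks covered at least 97.5% of each. A pair of them, both in 13c, held narrow ESC gaps of 17 and 32 bp.

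Over the 8 ESC gaps, Cbx2 covered 100% of the bases, Ring1b 99.8% and RYBP 11.8%. In all regions with 5 lists, the bases of ESC Mel18 gaps were covered at 92.3% by MES Mel18, 98.0% by Cbx2, 84.0% by Ring1b and 18.2% by RYBP. In the regions of 10 kb or more, RYBP covered 10.1% of such bases. The low RYBP cover of ESC gaps at the forkhead stretches was thus near that of other broad PRC1 regions.

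**Figure D2:**
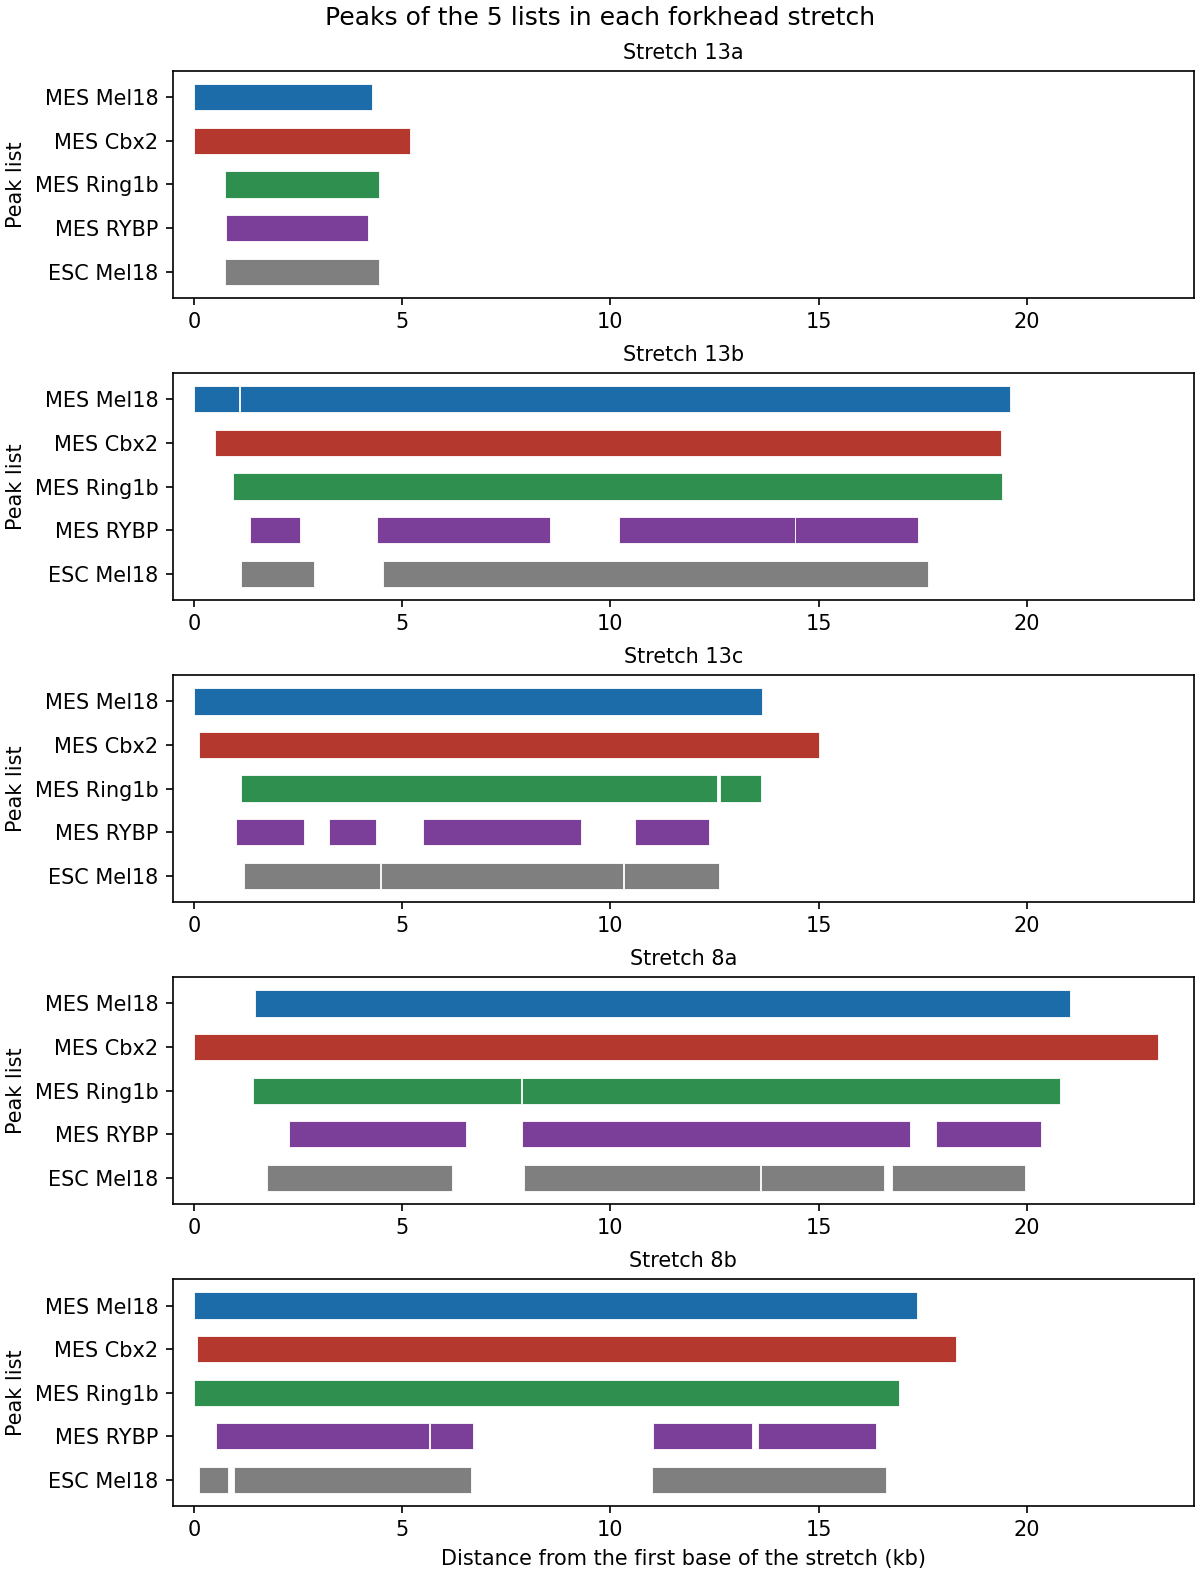
Peaks of the 5 lists (rows) in each of the 5 stretches, placed by distance in kb from the first base of the stretch, all on the same scale. Each bar is 1 peak and thin white lines are peak borders. MES Mel18, Cbx2 and Ring1b run nearly unbroken, while RYBP and ESC Mel18 leave gaps, the widest of them in stretch 8b.

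In MES, Cbx2 peaks were broad, and RYBP peaks lay in pieces at every stretch but 13a. The relation of each subunit's cover to that of Mel18, given below, was also the usual one in broad PRC1 regions. The order of all lists together was not compared with those regions. Cbx2 had exactly 1 peak per stretch, 5 in all. Ring1b had 8 peaks, of which 1 lay outside the stretches, RYBP had 16 and MES Mel18 6. The median over all regions with 5 lists was 1 RYBP and 1 MES Mel18 peak per region. Those regions had a median length of 3871 bp, and the numbers of RYBP and Cbx2 peaks were not compared with those in broad regions. Over both windows Cbx2 covered 80.3 kb, MES Mel18 74.4 kb, Ring1b 72.2 kb and RYBP 51.7 kb, against 58.7 kb for ESC Mel18. Cbx2, the chromodomain subunit, covered more than MES Mel18 at 4 of 5 stretches, the exception being 13b with 18865 bp of Cbx2 and 19549 bp of Mel18. The share was 75.9% over all regions with 5 lists and 76.1% over those of 10 kb or more. All 5 Cbx2 peaks overlapped a MES Mel18 peak, against 74.1% over the whole Cbx2 list.

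Cbx2 also reached beyond the ESC Mel18 edges on both sides of every stretch, by 38 to 1758 bp on the left and 754 to 3175 bp on the right. Whether this is usual was not tested. Over all regions with 5 lists, Cbx2 covered a median of 1.45 times the ESC Mel18 length. The farthest reach was at 8a, where 1 Cbx2 peak of 23134 bp (chr8:123594544-123617677) spanned the whole stretch. The Cbx2 peaks were 5185 bp at 13a, 18865 bp at 13b, 14870 bp at 13c and 18212 bp at 8b.

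Ring1b, the catalytic subunit, followed Mel18 closely and covered slightly less. It covered 3705 bp at 13a, 18476 bp at 13b and 12402 bp at 13c. On chromosome 8 it covered 19364 bp at 8a and 16938 bp at 8b. Each value was below that of MES Mel18, a relation found at 76.9% of all regions with 5 lists and 93.8% of those of 10 kb or more. Of the Ring1b peaks, 7 of 8 overlapped a MES Mel18 peak, against 42.4% over the whole Ring1b list. Of the Ring1b bases in the windows 97.8% lay in MES Mel18 peaks, against 62.0% over the whole Ring1b list. At 13c a second, low-ranking Ring1b peak (chr13:31904384-31905367) followed the main one after 71 bp. A Ring1b peak at chr13:31884428-31885769 (1342 bp) stood 5982 bp to the left of 13c. It overlapped no peak of another list and ranked 5814th of 8641 by score.

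RYBP, the variant PRC1 subunit, lay entirely within MES Mel18 peaks, which covered 100% of its bases, and covered the least. All 16 RYBP peaks overlapped a MES Mel18 peak (100%, interval 79.4 to 100), against 45.9% over the whole RYBP list. These peaks are parts of 5 stretches and not independent sites, so the interval covers counting only and is no test against the whole-list share. RYBP peaks covered 3412 bp at 13a, 12506 bp at 13b and 8319 bp at 13c. They covered 16072 bp at 8a and 11374 bp at 8b. RYBP covered less than MES Mel18 at 5 of 5 stretches (83.9% of all regions with 5 lists, 99.6% of those of 10 kb or more). It also covered less than ESC Mel18 at 5 of 5, against 67.5% of all regions with 5 lists and 86.3% of those of 10 kb or more. Its length relative to MES Mel18 was 0.798 at 13a, 0.640 at 13b, 0.610 at 13c, 0.822 at 8a and 0.655 at 8b. The median of that ratio was 0.700 in all regions with 5 lists and 0.560 in those of 10 kb or more. All 5 forkhead ratios lay above the median of the broad regions, although 13a, at 5192 bp, is not such a region. The ratios at 13b, 13c and 8b lay below the median of all regions with 5 lists. RYBP edges stayed within those of ESC Mel18 at 4 of 5 stretches on the left and at 4 of 5 on the right. No edge counts of other regions were made. There, RYBP covered a median of 0.877 times the ESC Mel18 length, over all regions with 5 lists.

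**Figure D3:**
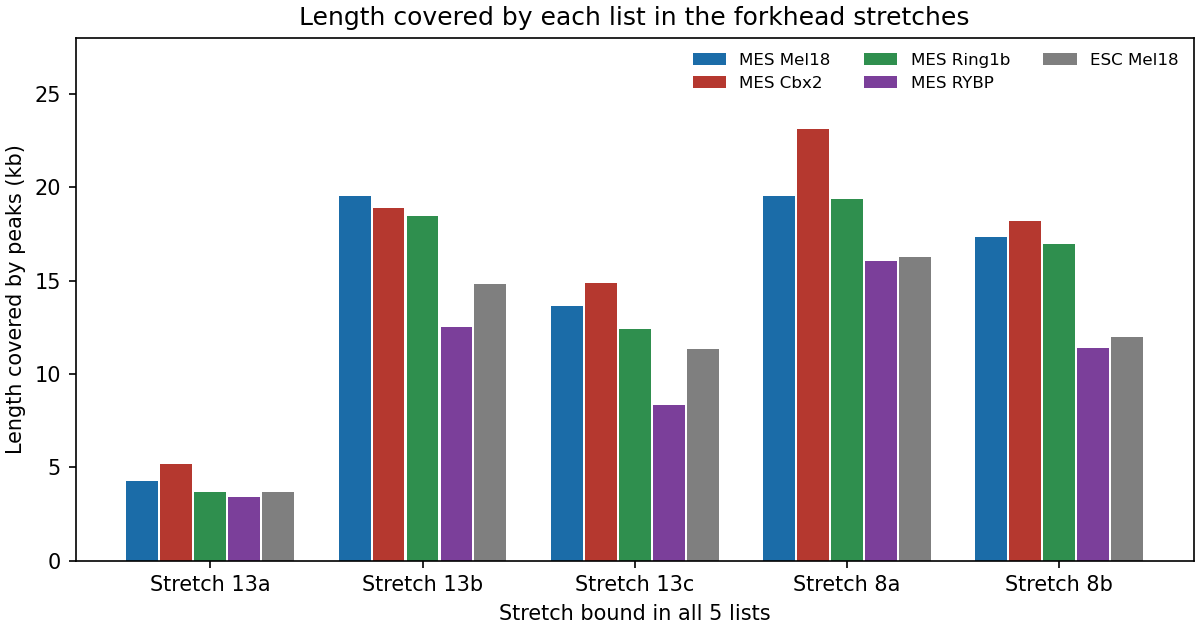
Length in kb covered by peaks of each list (bars, 1 sample each, no error) at the 5 stretches bound in all 5 lists. At every stretch MES Mel18 exceeds ESC Mel18 and RYBP is the shortest bar, and Cbx2 is the tallest except at stretch 13b.

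All 6 MES Mel18 peaks of the clusters overlapped Cbx2 and all 6 overlapped Ring1b, against 73.3% and 81.2% over the whole MES Mel18 list. RYBP was found at 5 of 6, against 72.4%. All of these subunits together were found at 5 of 6 (83.3%, interval 35.9 to 99.6), against 57.7%, and at 33.3% with peak centres within 1 kb. The exception was the narrow left-edge peak of 13b, which began 1349 bp before the first RYBP peak there. These few peaks are parts of stretches and not independent sites. The interval therefore covers counting only and is no test against the whole-list share. By bases, Cbx2 covered 98.7% and RYBP 69.5% of MES Mel18 peaks in the windows, against 84.7% and 56.1% over the whole MES Mel18 list. Ring1b covered 91.8% of these bases on chromosome 13 and 98.2% on chromosome 8, against 79.4% over the whole list.

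The forkhead peaks were among the wide and high-ranking peaks of their lists. Their median width was 15491 bp for MES Mel18, 18212 bp for Cbx2, 8926.5 bp for Ring1b, 2877.5 bp for RYBP and 3474 bp for ESC Mel18. The whole-list medians were 1855, 2508, 1178, 1476 and 1103 bp in that order. Peaks of 10 kb or more numbered 4 of 6 for MES Mel18 (4.11% of the whole list) and 4 of 5 for Cbx2 (5.65%). They numbered 4 of 8 for Ring1b (1.69%), 0 of 16 for RYBP (0.144%) and 1 of 14 for ESC Mel18 (0.713%). The wide ESC Mel18 peak lay in 13b (chr13:31709924-31722999, 13076 bp) and was the 17th widest of 6593.

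The authors' score stood at 3100, a value at which many peaks of 4 lists pile up, for 5 of 6 MES Mel18 peaks, 4 of 5 Cbx2, 5 of 8 Ring1b and 4 of 14 ESC Mel18 peaks. Over the whole lists, 8.98, 9.05, 3.43 and 4.6% of peaks scored 3100 or more. Some peaks of each of these lists scored above 3100. Those tied at 3100 ranked 15th in MES Mel18, 9th in Cbx2, 13th in Ring1b and 15th in ESC Mel18. The score therefore cannot rank the tied peaks further. In the RYBP list 0% of peaks scored 3100 or more, so its peaks can be ranked to the top. The RYBP peak with the best rank was that of 8a (chr8:123602414-123611722, 9309 bp), 19th of 7614 by score and 13th by width. On chromosome 13 the best-ranked RYBP peak lay in 13b (chr13:31715593-31719811), 97th by score. Low ranks occurred beside them, since RYBP peaks at 13c (chr13:31894996-31896123) and 8b (chr8:123642684-123643722) ranked 5914th and 5329th.

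**Figure D4:**
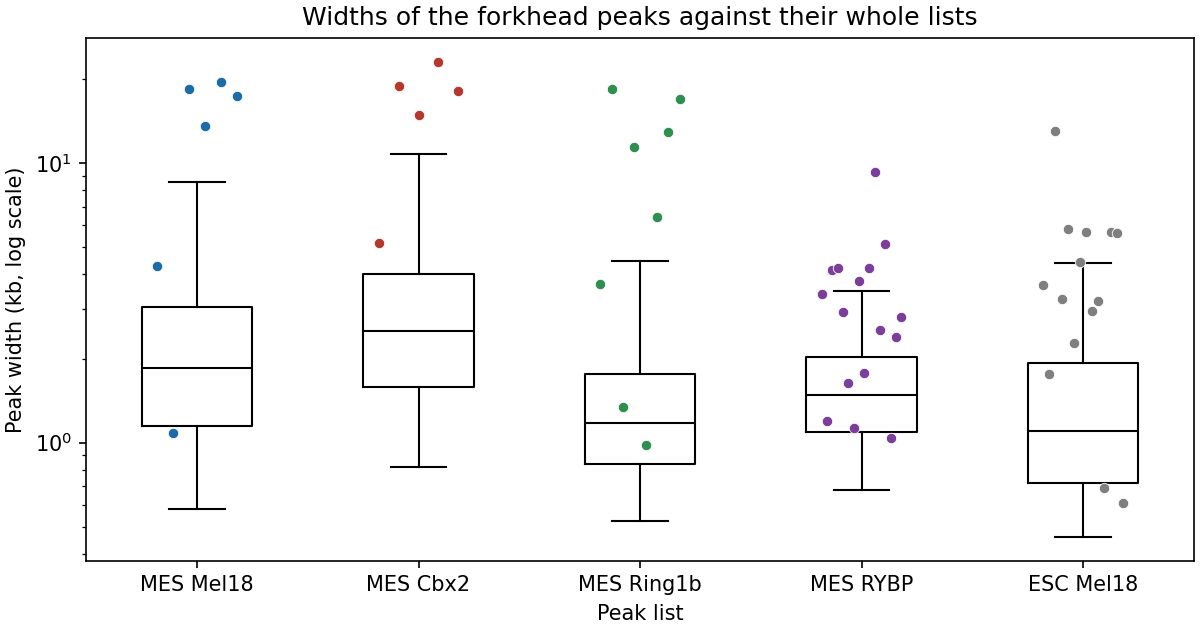
Width in kb (log scale) of each forkhead peak (points) beside the whole list (box, quartiles with the median as a line; whiskers, the 5th to 95th percentile of the list). Most Mel18, Cbx2 and Ring1b points in MES lie above the upper whisker, while RYBP and ESC Mel18 points lie on both sides of it.

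The clusters carried nearly the same length of PRC1 although they differed in layout. MES Mel18 covered 37.5 kb on chromosome 13 and 36.9 kb on chromosome 8, a ratio of 1.01. ESC Mel18 covered 29.9 kb on chromosome 13 and 28.9 kb on chromosome 8, a ratio of 1.03. Ring1b covered 35.9 kb on chromosome 13 and 36.3 kb on chromosome 8 (ratio 0.990). These 3 lists thus differed by under 1 kb between clusters. Cbx2 and RYBP covered more on chromosome 8. Cbx2 covered 38.9 kb on chromosome 13 and 41.3 kb on chromosome 8 (ratio 0.941), and RYBP 24.2 kb on chromosome 13 and 27.4 kb on chromosome 8 (ratio 0.883).

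The windows were chosen with unequal lengths, 350 kb on chromosome 13 and 150 kb on chromosome 8, and shares of a window follow that choice. MES Mel18 covered 10.7% of the chromosome 13 window and 24.6% of the shorter chromosome 8 window. ESC Mel18 covered 8.53% of the chromosome 13 and 19.2% of the chromosome 8 window. MES Mel18 exceeded ESC Mel18 by similar factors, 1.25 on chromosome 13 and 1.28 on chromosome 8. RYBP covered 64.7% of MES Mel18 bases on chromosome 13 and 74.4% on chromosome 8. No spread between replicates is available against which to judge these gaps between clusters. ChIP on bulk cells also cannot tell a stretch bound in every cell from one bound in a part of them.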

How the data were processed

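Peak lists of 5 ChIP-seq samples were used. The authors deposited 1 list per sample, with positions, a name that carries the tag of the MACS caller and a score per peak. The score starts at 50 in the deposited lists, its scale is not given in the sources used here, and it was used only to rank peaks, or to count those at its ceiling, within a list, so such counts show no difference between lists. Reads were placed on mm9, and Bowtie and TopHat were named without versions, per the submitters' processing notes. Caller settings, the control library, replicate pooling and read depth are likewise not given there, so peak number and width could not be corrected for depth.

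Peaks touching a window by at least 1 bp were taken, and starts are given counted from 1. Peaks of the 5 lists that overlapped were joined into regions, and the covered length is the union of a list's peaks. A peak was shared when it overlapped another list's peak by 1 bp. Exact Clopper-Pearson 95% intervals cover counting only. With 1 sample per group no test between lists or states was run. Overlaps were compared with those of bedtools 2.31.1 on 20 ordered pairs of lists, of which 0 differed, and the code was tested on simulated data. The work used scipy 1.17.1, pandas 2.3.3 and numpy 2.4.6 under Python 3.11.15, with matplotlib 3.10.9 for plots. Members, lists and alternatives were chosen with earlier results of these data known, and the comparison with regions of 10 kb or more was added after the values were seen. The genes named were the 6 members and neighbours that RefSeq places between them. Family promoters were not set against peaks, as no mm9 annotation was used.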

Additional observations from a re-analysis of the deposited data

How the results depend on the processing

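No paired analysis was possible because there was only 1 sample of each kind. The number of stretches with all 5 lists was 5 under every setting run for it (the upper 50% of each list by score, peaks within 1 kb joined, and windows widened by 50 kb or narrowed by 25 kb). MES Mel18 covered more than ESC Mel18 in both windows under those settings. The window settings could not test the number of stretches or the chromosome 13 ratio. All 5 stretches lay inside the narrowed windows, and widening only raised ESC Mel18 on chromosome 8 from 8 to 9 peaks. The ratio became 1.22 on chromosome 13 and 1.34 on chromosome 8 in the upper 50% by score, and on chromosome 8 it was 1.26 with peaks joined and also 1.26 with the window widened. Its median over all regions with 5 lists rose to 1.38 in those of 10 kb or more. Peak counts changed by over 1.5 times in 3 cases, to 3 for Ring1b on chromosome 13 in the upper 50% by score, and to 4 for RYBP and 5 for ESC Mel18 on chromosome 8 with peaks joined.

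Shares of peaks rest on few peaks. In the upper 50% by score, 100% of MES Mel18 peaks and 100% of ESC Mel18 peaks were shared between states, and 100% of MES Mel18 peaks had all of the other subunits. With peaks joined, 100% of MES Mel18 peaks were shared and 100% had all subunits. Both settings gave these values by construction. The score filter drops the low-ranking unshared peaks, and joining merges the unshared MES Mel18 peak with its neighbour 31 bp away. With peak centres within 1 kb, 28.6% of ESC Mel18 peaks were shared and 33.3% of MES Mel18 peaks had all subunits, since a narrow peak inside a broad one can lie far from its centre. Over both windows together peaks of MES Mel18 covered 14.9%, of Cbx2 16.1%, of Ring1b 14.4%, of RYBP 10.3% and of ESC Mel18 11.7%. By construction this covered share moved with the window. It was 10.6, 11.5, 10.3, 7.38 and 8.46% in that order with windows widened, and 18.6, 20.1, 18.1, 12.9 and 14.7% with windows narrowed. In the upper 50% by score it was 14.7% for MES Mel18, 14.0% for Ring1b, 9.67% for RYBP and 11.5% for ESC Mel18, and with peaks joined it was 10.6% for RYBP.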
